A study of Mus musculus with 6 samples.

Results

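Keratins are the intermediate filament proteins of epithelial cells, and their transcripts were followed here through 6 RNA-seq libraries of mouse dermal fibroblasts. The genes were taken by name: every protein-coding row whose symbol is Krt followed by digits alone. This gave 26 genes of the 23407 in the table. Krt6a and Krt6b carry a letter, so they fall outside the rule and are given only where a result turns on them. The cells were grown from back skin of animals aged 12 weeks. Trypsin loosened the epidermis, collagenase freed the cells of the remaining dermis, and RNA was taken after a short culture in serum, at passage 1. Of the libraries, 3 are labelled TSP2KO, from mice that lack thrombospondin-2 (gene Thbs2), and the 3 they are set against are labelled WT. The labels describe neither the construct of the allele nor the sex, strain and number of animals, so a p-value here speaks of how far these libraries scatter and the scatter may be technical.

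Keratins form filaments as pairs of a type I and a type II chain, and each layer of an epithelium uses its own pairs. Krt5 (type II) and Krt14 (type I) mark the basal layer of the epidermis, while Krt1 and Krt10 replace them in the layers above. Krt16 and Krt17 belong to the outer root sheath of the hair follicle and to injured epidermis, Krt8 and Krt18 to simple epithelium, and others to the inner root sheath or the hair shaft. Fibroblasts build their filaments mainly from vimentin. The 12 type I and 14 type II members lie, on mm10, in a pair of gene clusters. Of the 26, 11 are on chromosome 11 between 99232761 and 100269871, and 15 on chromosome 15 between 101347444 and 102032027, where the type I gene Krt18 sits beside the type II gene Krt8.

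The promoters of 3 members, chosen by how far their levels ranged between libraries, are shown as examples. No link between promoter and level was tested. Krt5 varied greatly between libraries, Krt10 stayed nearly level, and Krt90 was high in some libraries and close to 0 in others. Each sequence holds the 250 bases before the RefSeq start (build GRCm38.p6, the same assembly as mm10), read on the minus strand, at chr15:101712906-101713155 for Krt5, chr11:99389365-99389614 for Krt10 and chr15:101562951-101563200 for Krt90. Capitals mark ATAAA, the core of a TATA box, and GCCNNNGGC, the AP-2 motif, on either strand.
Krt5: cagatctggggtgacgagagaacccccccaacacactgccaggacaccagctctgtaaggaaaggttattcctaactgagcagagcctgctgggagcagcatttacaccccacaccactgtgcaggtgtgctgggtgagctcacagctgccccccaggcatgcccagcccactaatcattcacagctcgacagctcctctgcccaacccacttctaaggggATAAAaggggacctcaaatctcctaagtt
Krt10: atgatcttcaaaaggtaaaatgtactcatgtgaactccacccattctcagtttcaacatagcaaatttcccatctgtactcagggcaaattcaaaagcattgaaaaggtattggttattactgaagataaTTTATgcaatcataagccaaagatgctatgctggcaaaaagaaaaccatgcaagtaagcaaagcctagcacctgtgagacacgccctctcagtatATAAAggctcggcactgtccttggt
Krt90: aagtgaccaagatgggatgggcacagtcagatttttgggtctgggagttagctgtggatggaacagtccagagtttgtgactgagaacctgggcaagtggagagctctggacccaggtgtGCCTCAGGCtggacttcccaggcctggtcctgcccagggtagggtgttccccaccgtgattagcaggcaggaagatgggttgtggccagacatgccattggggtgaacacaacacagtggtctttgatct
Krt5 and Krt10 hold ATAAA 29 to 25 and 25 to 21 bases before the start, and Krt90 holds an AP-2 motif 130 to 122 bases before it. Krt10 has a further ATAAA on the other strand, 120 to 116 bases before the start. Of 32851 promoters in the table, 37.3% held ATAAA and 13.7% the AP-2 motif in the same window. The AP-1 motif TGANTCA (6.75% of promoters) and the GC box GGGCGG (32.7%) were searched as well and did not occur in these 3 windows. A match describes letters and shows no bound factor. Promoters were found for 16 of the 26 members. The RefSeq start of Krt14 lies 1518 bases inside the gene as drawn by GENCODE M21, so that window is not shown.

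Close relatives among the keratins can trade reads. The longest stretch shared by the coding sequences of Krt14 and Krt17 (chromosome 11), 71 bases long at positions 1216 to 1286 of the Krt14 coding sequence, is shown as an example of a stretch whose reads cannot be placed from sequence alone. Capitals mark the 55 bases that Krt16 also carries.
Krt14 and Krt17: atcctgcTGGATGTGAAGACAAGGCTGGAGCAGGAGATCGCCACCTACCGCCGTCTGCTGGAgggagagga
Of all 50-base words in its longest coding transcript, Krt14 shared 14.4% with transcripts of other genes, Krt17 3.99%, Krt5 8.52% and Krt16 37.6%. Krt81 shared 43.5%, mostly with Krt86, and Krt8 26.9% with a pseudogene copy. The values of Krt16, Krt81, Krt86, Krt87 and Krt8 are therefore uncertain in part. Krt10, Krt19, Krt20, Krt79, Krt80 and Krt90 shared no such word.

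The libraries differ in ways the labels do not explain. Thbs2 had 5177, 6635 and 4891 normalised reads in TSP2KO 1, TSP2KO 2 and TSP2KO 3, against 122061 in WT 1, 116720 in WT 2 and 8841 in the library labelled WT 3. In Thbs2, that library goes against its label. The log2 fold change of Thbs2 was -3.18 (SE 0.95, limma adjusted p = 0.318), or -4.43 (limma adjusted p = 0.00257) without that library. Values are the authors' normalised reads, and 1 read was worth between 0.392 and 0.89 of them. The estimated depth was 14776568 to 20522115 reads in TSP2KO and 18266669 to 34599944 reads in WT. The 8 fibroblast markers, led by Col1a2 and Col3a1, summed to 145691 to 234816 normalised reads in TSP2KO and 181250 to 341288 in WT, and none was at 0 in any library. Of these, Dcn, Lum and Pdgfra were lower in TSP2KO without overlap, beside 8.27% of all genes tested. In these genes the library labelled WT 3 thus lay above every TSP2KO library, as its label has it. These 3 were not called by limma (adjusted p = 0.181, 0.341 and 0.162). Without the library labelled WT 3, Pdgfra was called (limma adjusted p = 0.0401), beside 5.17% of all genes tested called in either direction.

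Keratin transcripts were present in all 6 libraries, at levels that differed far more between libraries of a group than between the groups. The 26 genes summed to 12949, 10301 and 519 normalised reads in TSP2KO 1, TSP2KO 2 and TSP2KO 3, against 1260, 431 and 34332 in WT 1, WT 2 and the library labelled WT 3. That is 0.112%, 0.0897% and 0.00394% of all normalised reads in the TSP2KO libraries, against 0.00979%, 0.00318% and 0.293% in the WT libraries. Each group thus held libraries rich and poor in keratin, and the groups overlapped. In bulk RNA, fewer cells of a type and less RNA per cell cannot be told apart. A count of 3 reads was taken as the limit of detection. Above it lay 21, 17 and 12 of the 26 keratins in the TSP2KO libraries and 12, 13 and 19 in the WT libraries.

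Krt14 had the highest level per kb of exon among the keratins in every library. Krt14 had 5061, 4727 and 157 normalised reads in TSP2KO 1 to 3, against 553, 180 and 15525 in WT 1, WT 2 and the library labelled WT 3. Krt5, its partner, had 1956, 2221 and 49.5 in the TSP2KO libraries, against 230, 58.4 and 6324 in the WT libraries. For both genes the library labelled WT 3 was highest, TSP2KO 1 and TSP2KO 2 came next, and WT 1 lay above WT 2 and TSP2KO 3. Krt15, a keratin of basal cells and of the follicle bulge, was close to 0 everywhere: 2, 1 and 0 reads in the TSP2KO libraries, against 3, 0 and 5 in the WT libraries.

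The keratins of the outer root sheath and of injured epidermis had the same highest 3 libraries as the basal pair. Krt17 had 3838, 2478 and 73.9 normalised reads in TSP2KO 1 to 3, against 292, 68.3 and 9494 in WT 1, WT 2 and the library labelled WT 3. Krt16 had 720, 286 and 23.1 in the TSP2KO libraries, against 25.3, 11 and 1250 in the WT libraries. Both were highest in the library labelled WT 3 and lowest in WT 2 (Krt17 was only slightly higher in TSP2KO 3). Krt6a, the type II partner of these chains, which lies outside the naming rule, had the same 3 libraries highest, with 4886, 3239 and 110 in the TSP2KO libraries, against 364, 102 and 13961 in the WT libraries. Krt5, Krt14, Krt16 and Krt17 together made up 89.4%, 94.3% and 58.5% of the keratin sum in the TSP2KO libraries, against 87.3%, 73.8% and 94.9% in the WT libraries.

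**Figure D1:**
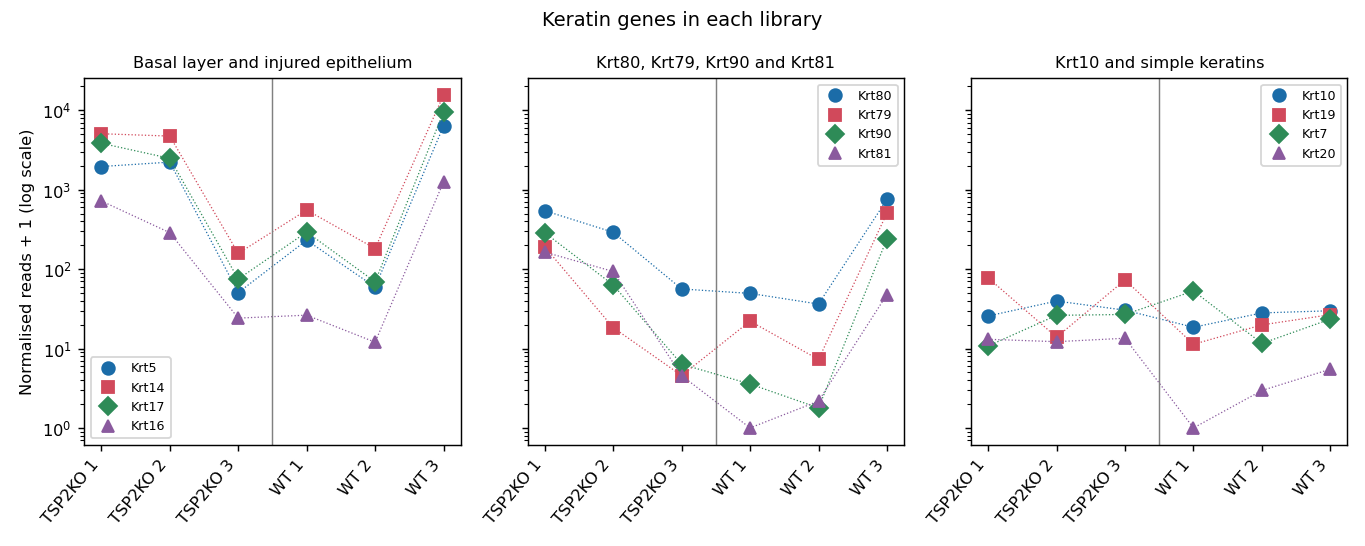
Normalised reads plus 1 on a log axis for 12 keratins in the 6 libraries, TSP2KO left of the grey line and WT right of it, 1 symbol per gene; dotted lines join a gene's values only to guide the eye. Krt5, Krt14, Krt16 and Krt17 are high in TSP2KO 1, TSP2KO 2 and the library labelled WT 3, while Krt10 stays between 17.5 and 38.6 normalised reads before the 1 is added.

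Keratins of the differentiated layers did not move as one. Krt1, the first suprabasal type II chain, had at most 2 reads in any library. Krt10, its partner, had 24.7, 38.6 and 29.4 normalised reads in TSP2KO 1 to 3, against 17.5, 27.1 and 28.9 in WT 1, WT 2 and the library labelled WT 3. Its highest library was only 2.2-fold above its lowest. Krt14 differed more, since its highest library was 99.1-fold above its lowest. Krt80, a type II keratin of differentiating epithelia, had the same highest 3 libraries, with 542, 290 and 55.2 in the TSP2KO libraries, against 48.4, 35.3 and 752 in the WT libraries. In the 3 libraries poor in Krt14 it still had 35.3 to 55.2 normalised reads. Krt78 stayed low, at 4.6, 6.71 and 1.78 in the TSP2KO libraries, against 0.515, 1.96 and 10.9 in the WT libraries.

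Simple keratins went their own ways. Krt19, found in simple epithelium, sweat glands and the follicle bulge, had 76.4, 12.9 and 72.1 normalised reads in TSP2KO 1 to 3, against 10.3, 18.8 and 25.7 in WT 1, WT 2 and the library labelled WT 3. It was high in TSP2KO 1 and TSP2KO 3, of which the last was poor in Krt14. Krt7, a chain of glandular and ductal epithelium, was highest in WT 1, with 9.77, 25.2 and 25.8 in the TSP2KO libraries, against 52, 10.6 and 22.5 in the WT libraries. The simple pair was seen mainly in the library labelled WT 3. Krt18 had 12, 0 and 1 reads in the TSP2KO libraries, against 1, 0 and 55 in the WT libraries, and Krt8 had 11.6, 4 and 0 in the TSP2KO libraries, against 4, 8 and 42.2 in the WT libraries.

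Krt20, a keratin of Merkel cells and of the gut lining, did not overlap between the groups: 12.1, 11.2 and 12.5 normalised reads in TSP2KO 1 to 3, against 0, 1.96 and 4.49 in WT 1, WT 2 and the library labelled WT 3. These are 21, 20 and 14 reads in the TSP2KO libraries, against 0, 5 and 7 in the WT libraries. Its mean lay below the minimum for testing. With no minimum the log2 fold change was 2.35 at an unadjusted p of 0.010 by limma, and the adjusted p was 0.371. Krt82, with 6, 5 and 1 reads in the TSP2KO libraries, against 0, 0 and 0 in the WT libraries, and Krt222, with at most 3 reads in any library, did not overlap either. These 3 are 3 of 26 keratins, all higher in TSP2KO, where 5.59% of 23243 genes above 0 in any library were higher without overlap. They were singled out after their values were seen. Of 6 Merkel cell markers other than keratins, Atoh1 and Isl1 were not analysed here, and the other 4, Piezo2, Syp, Sox2 and Tmem255a, summed to 242, 303 and 188 in the TSP2KO libraries, against 319, 254 and 191 in the WT libraries. Their part in the level of Krt20 was not tested.

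Krt79, Krt75 and Krt90, like the simple keratin Krt19, differed between TSP2KO 1 and TSP2KO 2, which had like levels of Krt14. Krt79, found in the mouse in the hair canal and the sebaceous duct, had 189, 17.3 and 3.56 normalised reads in TSP2KO 1 to 3, against 21.1, 6.28 and 506 in WT 1, WT 2 and the library labelled WT 3. TSP2KO 1 lay 10.9-fold above TSP2KO 2, a difference of 329 against 31 reads, and WT 1 lay above TSP2KO 2. Krt90 had 286, 62.1 and 5.34 in the TSP2KO libraries, against 2.58, 0.785 and 239 in the WT libraries, so that TSP2KO 1 was highest and the library labelled WT 3 next. Krt75, of the companion layer of the follicle, was seen in TSP2KO 1 and the library labelled WT 3, with 32, 2 and 0 reads in the TSP2KO libraries, against 0, 0 and 31 in the WT libraries. Krt42 had 22, 31 and 0 reads in the TSP2KO libraries, against 0, 1 and 19 in the WT libraries. Krt23 had at most 11 reads in any library. These are differences between single libraries and have no replicate.

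Of 14 hair keratins listed, 4 were analysed here, and of these Krt81, a hard keratin of the hair cortex, was the highest. Krt81 had 163, 92.3 and 3.56 normalised reads in TSP2KO 1 to 3, against 0, 1.18 and 46.8 in WT 1, WT 2 and the library labelled WT 3. TSP2KO 1 was highest and TSP2KO 2 next, both above the library labelled WT 3, which led for Krt14. TSP2KO 3, with 4 reads, was close to WT 2, with 3, and the groups overlapped. The other 3 hair keratins analysed, Krt82, Krt86 and Krt87, and the inner root sheath keratins Krt28 and Krt73 had at most 7 reads in any library. Of the 9 keratins listed for the inner root sheath and companion layer, 3 were analysed here.

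Measured per kb of exon against Krt14 of the same library, some keratins kept a fixed share and others did not. Krt5 lay at 30.9%, 37.6% and 25.3% of Krt14 in TSP2KO 1 to 3, against 33.3%, 25.9% and 32.6% in WT 1, WT 2 and the library labelled WT 3. Its share moved by 1.49-fold where Krt14 itself moved by 99.1-fold. Krt17 lay at 85.9%, 59.4% and 53.5% in the TSP2KO libraries, against 59.7%, 42.9% and 69.3% in the WT libraries, a 2-fold range. Krt16, at 5.14% to 16.6%, ranged 3.23-fold, Krt80 7.27-fold and Krt79 10.4-fold. Krt90 ranged 13-fold, from 0.302% in WT 2 to 3.92% in TSP2KO 1. Krt19 had no fixed share at all, from 0.157% in the library labelled WT 3 to 43.6% in TSP2KO 3. Krt81 was the tested keratin whose share differed without overlap, a choice made after its values were seen. It lay at 2.66%, 1.62% and 1.89% of Krt14 in TSP2KO 1 to 3, against 0%, 0.541% and 0.25% in WT 1, WT 2 and the library labelled WT 3. Of all genes tested 0.102% were higher in TSP2KO without overlap in this ratio, and 0.326% lower. Krt14 ranged 99.1-fold, with high and low libraries in both groups. A gene that does not follow Krt14 therefore overlaps in this ratio almost by construction. These percentages are thus no fair background for Krt81. The share of Krt81 rests on 282.9, 165 and 4 reads in the TSP2KO libraries, against 0, 3 and 73 in the WT libraries, and has no test. These shares rest on few reads in the libraries poor in keratin, where Krt14 had 176 reads in TSP2KO 3 and 459.9 in WT 2.

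**Figure D2:**
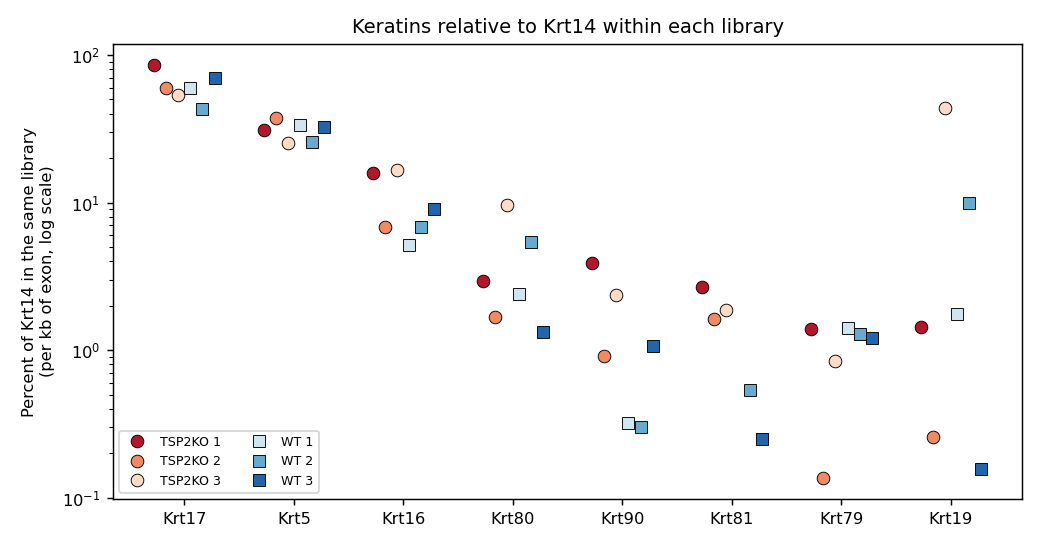
Level per kb of exon as a percent of Krt14 in the same library, on a log axis, for 8 keratins, with TSP2KO libraries as circles left of WT libraries as squares. Krt17 and Krt5 form tight groups, while Krt19 runs from 0.157% to 43.6%; Krt81 was at 0 in WT 1, which has no point there.

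Type I chains exceeded type II chains among the members in every library. Summed per kb of exon, type II came to 0.207, 0.252 and 0.19 of type I in TSP2KO 1 to 3, against 0.238, 0.214 and 0.205 in WT 1, WT 2 and the library labelled WT 3. With Krt6a and Krt6b, the type II chains that the naming rule leaves out, it came to 0.569, 0.555 and 0.425 of type I in the TSP2KO libraries, against 0.533, 0.461 and 0.587 in the WT libraries. Krt6a had 43.6% of its words in common with Krt6b, so their separate values are uncertain. The ratio moved little where the type I sum ran from 180 per kb in WT 2 to 15818 per kb in the library labelled WT 3.

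TSP2KO was compared with WT by limma on log2(value + 1) for the 14707 genes with a mean of at least 10, and 11 of the 26 keratins passed that minimum. The call needed a p below 0.05 after Benjamini-Hochberg adjustment across those genes. None of the 11 keratins was called by limma, and 0 of 11 had an unadjusted p under 0.05. Of all genes tested 0.0612% were called, and 9.75% had an unadjusted p under 0.05. The adjusted p of the 11 keratins ran from 0.666 to 0.967. Their log2 fold changes were above 0 for 9 and below 0 for 2, with a median of 0.63, beside -0.01 for all genes tested. None of the 11 was without overlap between the groups, beside 14.2% of all genes tested (5.9% higher and 8.27% lower in TSP2KO). The 15 keratins below the minimum reached between 0.89 and 35.3 normalised reads in their highest library. The lowest mean among the tested keratins was 24.3 (Krt7), and the highest among those left out was 7.26 (Krt18).

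The intervals were wide, so the lack of a call does not show that the groups were alike. Krt14 averaged 3315 ± 2740 normalised reads in TSP2KO and 5420 ± 8754 in WT (SD, n = 3 each), with a log2 fold change of 0.42 (95% interval -4.02 to 4.87) by limma. The mean of the values was lower in TSP2KO while the mean of the log2 values was higher. Krt81 averaged 86.1 ± 79.7 in TSP2KO and 16 ± 26.7 in WT, with the largest log2 fold change of the 11, 3.13 (95% interval -1.06 to 7.31, limma adjusted p = 0.666). Krt10 had the narrowest interval, 0.33 (-0.53 to 1.19). The standard errors of the tested keratins ran from 0.37 to 2.06 on the log2 scale, where the median over all genes tested was 0.3.

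The size of these differences depended on every library. The median log2 fold change of the 11 keratins was 0.18, 0.16 and 2.08 without TSP2KO 1, TSP2KO 2 or TSP2KO 3, and 0.25 and -0.085 without WT 1 or WT 2, with 0 of 11 called each time. Without the library labelled WT 3, the median log2 fold change of the 11 keratins was 2.3 in place of 0.63, beside -0.03 for all genes tested. Still 0 of 11 were called, where 5.17% of all genes tested were. An unadjusted limma p under 0.05 was found for 4. The share of all genes at that unadjusted threshold was not computed for this fit, so the 4 have no background beside them. These were Krt81 at 4.8, Krt90 at 4.27, Krt16 at 3.27 and Krt80 at 2.29, with limma adjusted p of 0.105, 0.13, 0.181 and 0.164. Krt79 changed sign, with a log2 fold change of -0.79 with all libraries and 0.99 without this one. Krt10 and Krt7 hardly moved, at 0.46 and -0.34.

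**Figure D3:**
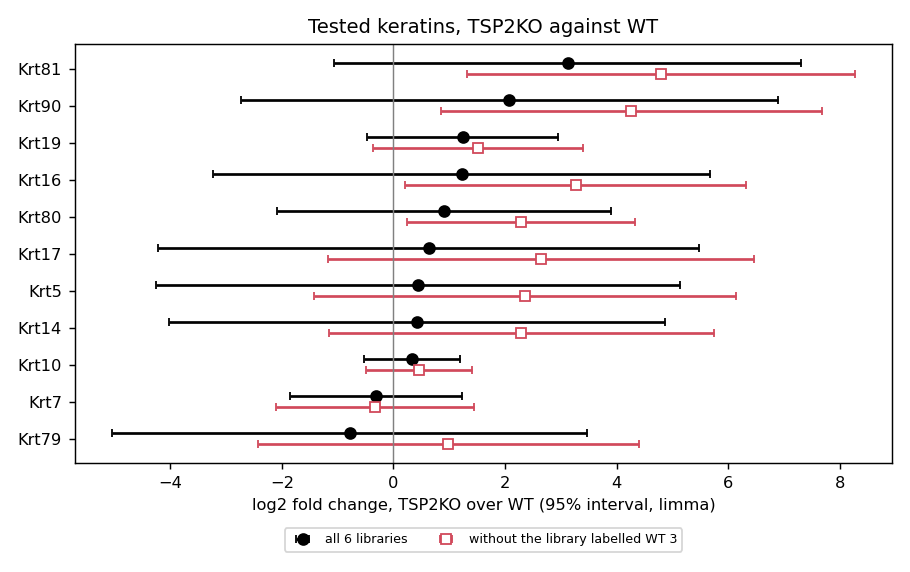
Log2 fold change of TSP2KO over WT with 95% intervals for the 11 tested keratins, with all 6 libraries (filled circles) and without the library labelled WT 3 (open squares). With all libraries every interval spans 0; without that library the intervals of Krt81, Krt90, Krt16 and Krt80 lie above 0 before any adjustment, with adjusted p from 0.105 to 0.181.

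The order of the libraries is described here without a test, because it was known before these genes were chosen and is not a grouping of the study. The library labelled WT 3, TSP2KO 1 and TSP2KO 2 were the highest 3 for 7 of the 11 tested keratins, Krt5, Krt14, Krt16, Krt17, Krt80, Krt81 and Krt90. Of all genes tested 9.12% had this order. For all 7 the lowest of these 3 libraries lay at least 5-fold above the highest of the others, from 5.25-fold for Krt80 to 13.1-fold for Krt81, a gap that 0.728% of all genes tested had. Krt7, Krt10, Krt19 and Krt79 did not have this order. Among the 15 keratins not tested, 4 had it: Krt28, Krt42, Krt75 and Krt78, of which Krt28 had at most 3 reads in any library and Krt75 had 2 in TSP2KO 2, neither above the limit of detection there. That makes 11 of 26, beside 9.5% of all genes above 0 in a library. By role the 11 were basal (Krt5, Krt14), injury-associated (Krt16, Krt17), suprabasal (Krt78, Krt80), of the inner root sheath or companion layer (Krt28, Krt75) and of hair (Krt81), with Krt42 and Krt90, which stand in no such list. None was a simple keratin.

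Other keratinocyte genes were high in the same libraries. All 12 markers listed besides keratins had the same 3 libraries highest, beside 9.5% of all genes above 0 in a library. They summed to 5920, 6849 and 457 normalised reads in TSP2KO 1 to 3, against 1065, 454 and 16880 in WT 1, WT 2 and the library labelled WT 3. Dsc3, a desmosomal cadherin, had 1530, 1559 and 57 in the TSP2KO libraries, against 155, 59.2 and 4136 in the WT libraries. Trp63, which encodes p63, the regulator of basal keratinocyte identity, had 334, 355 and 30.3 in the TSP2KO libraries, against 150, 127 and 965 in the WT libraries. Trp63 thus differed less between libraries than Krt14. No marker of this list was at 0 in all libraries; Epcam, Lgals7 and Fermt1 were at 0 in TSP2KO 3. The part of keratinocytes in the keratin levels was not tested apart from these values.

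Melanocyte markers summed to 884, 483 and 212 normalised reads in TSP2KO 1 to 3, against 672, 789 and 1577 in WT 1, WT 2 and the library labelled WT 3. Tyrp1, a pigment enzyme, had 293, 88.4 and 16 in the TSP2KO libraries, against 5.15, 8.24 and 541 in the WT libraries. Of the 6 markers, 4 had the same highest 3 libraries as Krt14, beside 9.5% of all genes above 0 in a library. Mitf did not, with 294, 259 and 155 in the TSP2KO libraries, against 592, 660 and 441 in the WT libraries. Mitf was called lower only without the library labelled WT 3 (limma adjusted p = 0.205 with it and 0.0421 without), where 5.17% of all genes tested were called in either direction. Macrophage markers had another order, 697, 800 and 807 in the TSP2KO libraries, against 5798, 4825 and 3139 in the WT libraries, and 1 of 11 was called lower by limma (C1qb, adjusted p = 0.0456), beside 0.0612% of all genes tested. This call was lost when any 1 of the 5 libraries other than that labelled WT 3 was left out. An unadjusted p under 0.05 was found for 10 of the 11 macrophage markers, beside 9.75% of all genes tested. Without the library labelled WT 3, 8 of the 11 were called lower, beside 5.17% of all genes tested called in either direction. Markers of mesothelium, which also uses Krt7, Krt8 and Krt18, (Wt1 was not analysed here) summed to 7.47, 6.15 and 8.9 in the TSP2KO libraries, against 33.5, 14.9 and 10.3 in the WT libraries. The sum in WT 1, the library highest in Krt7, was Msln alone, and Upk3b, Lrrn4 and Muc16 were at 0 there. Sebocyte markers, a list led by Soat1, which many cells use, summed to 1398, 1283 and 1470 in the TSP2KO libraries, against 1189, 1440 and 1359 in the WT libraries, of which Soat1 made up nearly all. Mc5r, with 25.9, 15.1 and 1.78 in the TSP2KO libraries, against 4.64, 0 and 5.13 in the WT libraries, had the same highest 3 libraries as Krt14. So had Scd3, with 23, 14 and 2.67 in the TSP2KO libraries, against 4.12, 4.32 and 13.5 in the WT libraries. These are 2 of the 5 sebocyte markers, beside 9.5% of all genes above 0 in a library. For Mc5r the order rests on a small gap at low values, 5.13 in the library labelled WT 3 against 4.64 in WT 1. Awat2 went the other way, with 2.3, 1.68 and 1.78 in the TSP2KO libraries, against 4.12, 5.88 and 4.49 in the WT libraries. Elovl3 and Soat1 did not have the order of Krt14 either. The parts of these cell types in the keratin levels were not tested.

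**Figure D4:**
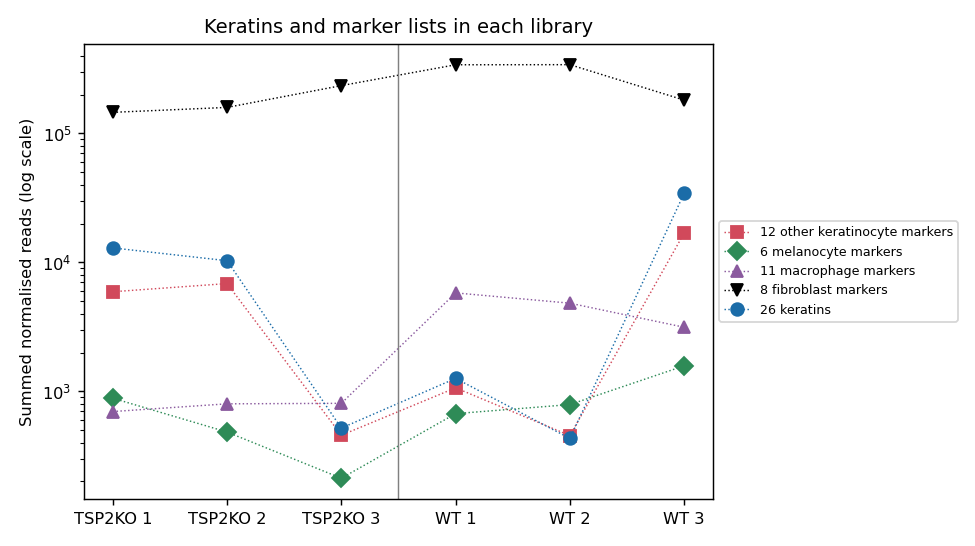
Summed normalised reads on a log axis for the 26 keratins and 4 marker lists in each library, TSP2KO left of the grey line and WT right of it, with dotted lines only to guide the eye. The 26 keratins and the 12 other keratinocyte markers run together from 431 and 454 in WT 2 to 34332 and 16880 in the library labelled WT 3.

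Genes of the proteins that anchor keratin filaments shared the order in part. Of 20 plakins, desmosomal and hemidesmosomal genes, 19 were tested. Of the 19, 0 were called in either direction by limma and 1 had an unadjusted p under 0.05, beside 0.0612% and 9.75% of all genes tested. The 3 high libraries were the same for 15 of the 19, beside 9.12% of all genes tested. Of the 12 keratinocyte markers, 7 also stand in this list or the next. The median log2 fold change was 0.3. Plec, plectin, which links filaments in many cell types, had 3346, 2963 and 3701 normalised reads in TSP2KO 1 to 3, against 2565, 2139 and 2486 in WT 1, WT 2 and the library labelled WT 3 (log2 fold change 0.48, SE 0.17, limma adjusted p = 0.418). The groups did not overlap for Plec, beside 5.9% of all genes tested that were higher in TSP2KO without overlap. Its order was not that of Krt14. Dsc2, another desmosomal cadherin, had 205, 87.8 and 34.7 in the TSP2KO libraries, against 6.7, 7.06 and 228 in the WT libraries (limma adjusted p = 0.728), and it passed the threshold without the library labelled WT 3 (log2 fold change 3.46, adjusted p = 0.041).

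Among 17 regulators of keratin genes or keratinocyte identity that were analysed, 13 were tested. Of the 13, 0 were called by limma in either direction and 2 had an unadjusted p under 0.05, beside 0.0612% and 9.75% of all genes tested. Their median log2 fold change was 0.05. The 3 high libraries named above were those of 6 of the 13, beside 9.12% of all genes tested. Lef1, a factor of hair follicle and dermal cells, had 147, 74.3 and 97.5 normalised reads in TSP2KO 1 to 3, against 27.5, 40 and 48.1 in WT 1, WT 2 and the library labelled WT 3 (log2 fold change 1.42, SE 0.36, limma adjusted p = 0.246). Msx2, a homeobox factor of hair and skin, had 21.3, 43.6 and 28.5 in the TSP2KO libraries, against 17.5, 11.8 and 10.9 in the WT libraries (log2 fold change 1.13, adjusted p = 0.442). Tfap2c, which encodes an AP-2 factor, had 44.2, 49.2 and 7.12 in the TSP2KO libraries, against 1.03, 2.75 and 21.8 in the WT libraries (log2 fold change 2.24, adjusted p = 0.58). Klf4, of the differentiating epidermis and also of fibroblasts, had 261, 142 and 206 in the TSP2KO libraries, against 141, 285 and 211 in the WT libraries.

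Genes of cornification had the highest 3 libraries of Krt14 in 6 of the 10 analysed, beside 9.5% of all genes above 0 in a library. Of the 10, 6 were tested, with a median log2 fold change of 0.02. By limma 0 were called and 0 had an unadjusted p under 0.05, beside 0.0612% and 9.75% of all genes tested. Sprr1a, a small proline-rich protein of the cornified envelope that injury also induces, had 873, 524 and 0.89 normalised reads in TSP2KO 1 to 3, against 28.8, 14.9 and 1866 in WT 1, WT 2 and the library labelled WT 3. Ivl, involucrin, had 32.7, 10.1 and 5.34 in the TSP2KO libraries, against 3.09, 1.57 and 97.5 in the WT libraries. Lor, loricrin, a product of the late layers, had 0.574 in TSP2KO 1 and 0 in the other 5 libraries. Tchh, trichohyalin, did not follow, with 41.4, 77.2 and 41 in the TSP2KO libraries, against 55.6, 44.7 and 47.5 in the WT libraries.

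Intermediate filament genes other than keratins set the scale. Among the 14 analysed, 9 were tested, with a median log2 fold change of -0.04. By limma 0 were called and 1 had an unadjusted p under 0.05, beside 0.0612% and 9.75% of all genes tested. Vim, vimentin, the main filament gene of fibroblasts, had 10873, 14219 and 12249 normalised reads in TSP2KO 1 to 3, against 15339, 9693 and 8824 in WT 1, WT 2 and the library labelled WT 3 (log2 fold change 0.18, SE 0.26, limma adjusted p = 0.866). Lmna, which encodes the nuclear lamins A and C, had 6107, 10682 and 7013 in the TSP2KO libraries, against 8269, 5274 and 4945 in the WT libraries. Gfap, the filament of glial cells, had 1.15, 5.03 and 2.67 in the TSP2KO libraries, against 110, 81.2 and 33.4 in the WT libraries, without overlap (log2 fold change -4.23, SE 0.62, limma adjusted p = 0.0974), and it passed without the library labelled WT 3 (adjusted p = 0.0161).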

How the data were processed

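The table holds 1 column of values for each of the 6 libraries. Per the file headers and the file's name, the values the authors deposited are normalised counts, used here as a signal and not as raw counts. Genome build mm10 and the tools STAR, Partek and DESeq2 are named, without roles, in the submitters' processing notes; no source used here gives the counting options or strand setting, so sense and antisense reads cannot be told apart. Set against the genes' geometric means, the libraries had median ratios of 0.997 to 1.02. Low values fell on steps of 1 read, but only 67.7% to 73.2% of values above 0 were whole multiples within 0.02 of a read, so whole reads were not recovered and no count test was run. Reads quoted are values divided by that step, and limits of 3 reads cover counting error only.

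Genotype and number in the titles tied columns to libraries; the library suffixes of the columns differ from those of the labels. limma 3.58.1 in R 4.3.3 was fitted to log2(value + 1) with a mean-variance trend, two-sided, over genes with a mean of at least 10. Fold changes on that scale understate low genes. The fit was tested on data simulated with independent errors for each gene and library. Many genes here moved together between libraries, a dependence that the simulation does not cover. TMM factors, for an alternative, were computed directly from the values. Coordinates, counted from 1 on mm10, are the table's with 1 base taken off the stop, and equal GENCODE M21 for all 26 genes; exon lengths and transcripts are from GENCODE M21 and promoters from RefSeq. The members, lists and tests were chosen with earlier results of these data known. Every keratin could be named, with values per library where the highest reached 50, and of each other list the 4 members of smallest p and the 2 of highest mean. Outside that rule, Lor, Epcam, Lgals7, Fermt1, Col17a1, Itgb4, Upk3b, Muc16, Mc5r, Tyr, Dct, Awat2 and Elovl3 were chosen after their values were seen. So were the keratins given per library below 50.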

Additional observations from a re-analysis of the deposited data

How the results depend on the processing

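The count of 0 called keratins held under every setting run: pseudocounts of 0.1 and 10, no minimum, a mean of at least 100, TMM rescaling, no trend, the replicate block and each library left out. The median log2 fold change of the keratins ran from -0.085 to 2.3 over the libraries left out in turn. Signs were not stable. With a library left out, log2 fold changes ran from -1.003 to 2.36 for Krt5, -0.91 to 2.3 for Krt14, -0.90 to 2.65 for Krt17, -0.085 to 3.27 for Krt16, -0.85 to 0.25 for Krt7 and -2.24 to 0.99 for Krt79; the cause was not tested. Krt10, Krt19, Krt80, Krt81 and Krt90 had log2 fold changes above 0 in every setting run in which they were tested. With no minimum, 11 of 26 keratins had the order of libraries that 7 of 11 had.

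Over all genes, 0 were higher and 9 lower in TSP2KO. The lower count was 0 with a pseudocount of 0.1, with no minimum and with a mean of at least 100, 14 with a pseudocount of 10 and 15 with no trend. With a library left out it ran from 0 to 404 and the higher count from 0 to 357, the high values both without the library labelled WT 3. Thbs2 ran from -4.43 to -2.54, and passed without that library. With the replicate number as a block the lower count was 0. Same-numbered libraries did not deviate together (correlations -0.422, -0.247 and -0.395). With 3 libraries in a group, large differences between libraries dominate these correlations. Whether the numbers stand for a pairing is therefore not known. The libraries poor in keratin, TSP2KO 3 above all, limit the shares of Krt14.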

Other observations

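TSP2KO 1 and TSP2KO 2 had like levels of the basal pair and differed in other keratins. Both are single libraries, so these differences have no replicate. Not every other keratinocyte marker was level between them: Col17a1 had 141 and 587 normalised reads, and Itgb4 358 and 766, in TSP2KO 1 and TSP2KO 2. Krt79, Krt19 and Krt90 were 10.9-fold, 5.94-fold and 4.61-fold higher in TSP2KO 1 than in TSP2KO 2, while Krt14 stood at 1.07 times and Krt5 at 0.88 times the TSP2KO 2 level. Tyrp1 and Pmel, of melanocytes, had 293 and 107 normalised reads in TSP2KO 1, 88.4 and 40.3 in TSP2KO 2, and 541 and 248 in the library labelled WT 3. Dct, also of melanocytes, had 138 and 43.1 in TSP2KO 1 and TSP2KO 2, and 283 in the library labelled WT 3. The remaining melanocyte markers listed did not differ so between TSP2KO 1 and TSP2KO 2: Mlana had 49.4 and 48.7, Mitf 294 and 259, and Tyr 2.87 and 3.92. Sox9, a factor of the outer root sheath, went otherwise, with 42.5, 52.6 and 5.34 in TSP2KO 1 to 3, against 62.3, 35.7 and 123 in WT 1, WT 2 and the library labelled WT 3.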
